A study of Mus musculus with 27 samples.

Results

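Skeletal muscle burns fatty acids that are taken from blood, and 10 genes of that route were followed in mouse tibialis anterior muscle after volumetric muscle loss (VML), the surgical removal of a large piece of muscle. The set is a list of names, with no threshold on a measured value, but chosen with earlier results of these data known. It holds Cd36, Fabp3 and Lpl for uptake, Cpt1b and Cpt2 for entry into mitochondria, and Acadl, Acadm, Acadvl, Hadha and Hadhb for beta-oxidation. Each name matched 1 gene, so that the set is 10 of the 54532 genes of the deposited expression table.

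Fatty acids reach a muscle fibre from lipoproteins, whose triglycerides are cut by lipoprotein lipase on the capillary wall, and from albumin. The fatty acid crosses the membrane with the help of CD36, is carried through the cytosol by a fatty acid binding protein, is bound to coenzyme A, and enters the mitochondrion as a carnitine ester. There each turn of beta-oxidation shortens it through a dehydrogenase, a hydratase, a second dehydrogenase and a thiolase, and oxidative fibres are known for high levels of these enzymes.

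The mice were C57BL/6 males of 8 weeks, and 40% of the tibialis anterior was excised as a partial-thickness defect. The sources differ on whether 1 leg or both legs were operated on, unilateral in the design text and bilateral in the methods. Muscles were taken without injury (n = 5) and 3 days (n = 5), 7 days (n = 6), 14 days (n = 6) and 21 days (n = 5) after VML, and no other treatment is named and no sham-operated group is among the samples. The sources used here do not say whether 2 muscles came from 1 mouse, and p-values then measure only the spread between these samples.

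Expression was given as FPKM, fragments divided by exon length and by a scaling base for each library, so that levels are per length. Reads recovered from the FPKM and the gene lengths summed to between 14376395 and 24436763 per sample, and no 2 samples held identical values. The scaling base of the deposited FPKM was not each sample's own total. It was on average 0.782 times that total in uninjured muscle, and 1.25, 1.18, 1.04 and 0.897 times at days 3, 7, 14 and 21. Markers of muscle fibres, all 15 above 0 in each group, checked the tissue. Their summed FPKM was 102517 to 120544 in uninjured muscles, 25156 to 75650 on day 3, and 89653 to 123440 by day 21. Of the 15, 11 were called lower by day 3 in the limma test of the members, 7 by day 7, 2 by day 14 and 0 by day 21. The shares of all genes called lower at these times were 19.8%, 14.4%, 11.3% and 1.69%. On day 21, 2 of the 15 had an unadjusted limma p below 0.05, against 19.8% of all genes. Tnni1, the slow-fibre troponin I, was called higher on days 3, 7 and 14. The summed FPKM of 11 leukocyte markers was 24.98 to 36.1 in uninjured muscles, 461 to 2531 on day 3, and 48.0 to 81.8 on day 21. Of 7 endothelial markers, 3 were called lower on day 3 and 1, Kdr, on day 21, against 19.8% and 1.69% of all genes. Of 6 fibroblast markers, 5, 5, 5 and 2 were called higher on days 3, 7, 14 and 21, and of 5 satellite cell and myoblast markers 4, 3, 3 and 2. Of all genes, 23.4%, 15%, 9.02% and 1.74% were called higher on these days. In such bulk tissue, fewer cells of a type and less RNA per cell cannot be told apart, and the part of these shifts in the results was not tested.

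All 9 members that could be tested had a lower mean than uninjured muscle at each of the 4 time points, and most of them passed the test through day 14. Changes are log2 fold changes of FPKM + 1 from 1 limma fit over the 27 samples, and a gene was called changed where its adjusted p was below 0.05. The tenth, Cpt1b, lay below the filter on low values. At day 3, 8 of 9 were called lower, against 19.8% of all 14630 genes tested, and their median change was -1.14. At day 7, 8 of 9 were called lower, against 14.4% of all genes, with a median of -1.10. At day 14, 8 of 9 were called lower, against 11.3%, with a median of -0.89. At day 21, 3 of 9 were called lower, against 1.69%, with a median of -0.80. None was called higher at any time, and the median of all genes lay between 0.01 and 0.03.

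**Figure D1:**
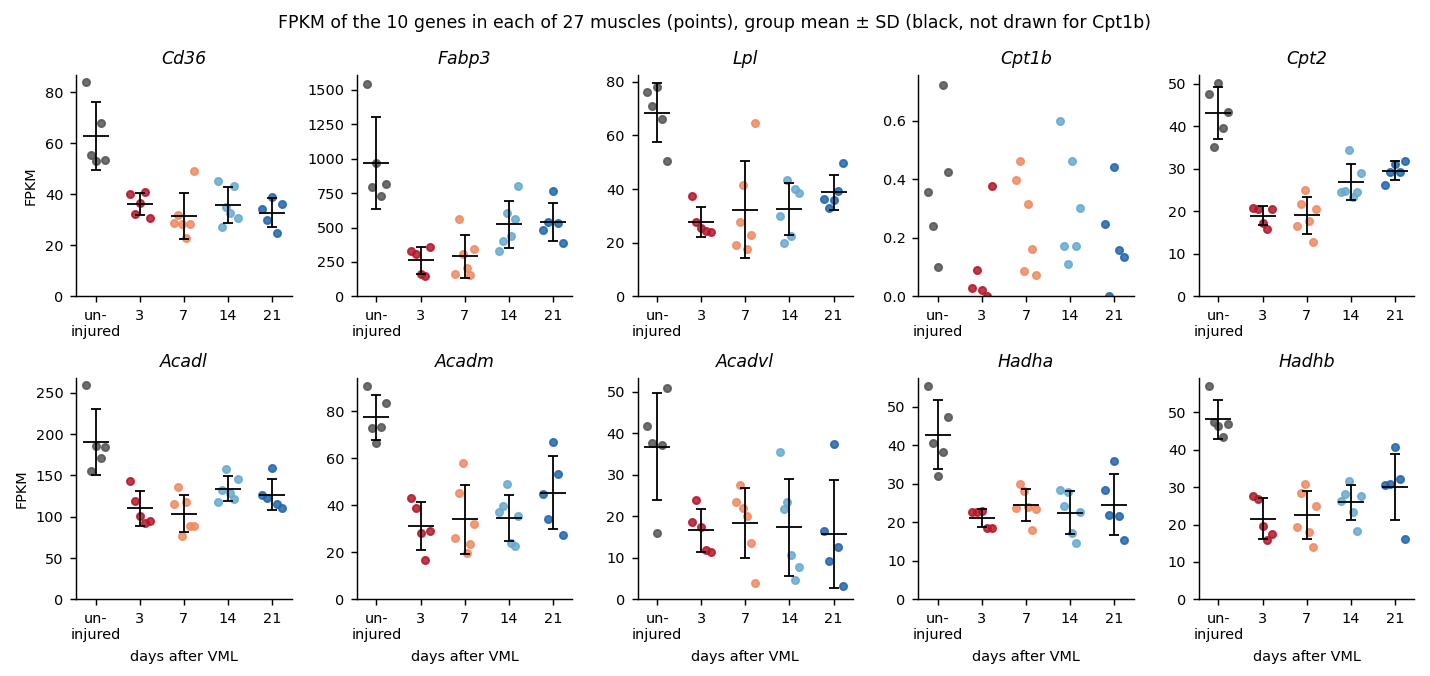
FPKM (linear axis from 0, a scale for each gene) of the 10 genes in the 5 uninjured muscles and in the muscles taken 3, 7, 14 and 21 days after VML. Each point is 1 muscle and the black bars are the group mean ± SD, left out for Cpt1b; for 8 genes every muscle at day 3 lies below every uninjured muscle, the exceptions being Acadvl and Cpt1b, whose axis ends under 1 FPKM.

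The separation of single muscles gave a similar order. All 5 muscles of day 3 lay below all uninjured muscles for 8 of the 9 genes, which held for 16.5% of all genes. The same count was 7 at day 7 (5.37% of all genes), 6 at day 14 (8.05%) and 4 at day 21 (5.13%). These counts hold for the deposited FPKM and were not made under the other scalings. The 3 calls of day 21 were 1 to 5 when 1 muscle was left out, 1 without uninjured replicate 1 or 5 or day 21 replicate 2 or 5, and 5 without day 21 replicate 3. They were 8 with only the 2 groups in the fit, where 4.92% of all genes were called lower. With the replicate number or the letter of the sample description as a block they were 7, against 2.77% and 4.61% of all genes. Before adjustment, 8, 9, 9 and 9 of the 9 genes had p below 0.05 at days 3, 7, 14 and 21, against 49.6%, 41.7%, 34.7% and 19.8% of all genes.

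The size of these changes depended on the scaling. Each sample's own total was first taken as the base. The median change of all genes moved up by 0.39, 0.33, 0.22 and 0.10 at days 3, 7, 14 and 21. Of the 9 members, 4, 5, 2 and 0 were called lower, and of all genes 4.14%, 2.85%, 1.91% and 0.168% were. With FPKM rescaled to a common sum in every sample (TPM), the shift was 0.49, 0.44, 0.27 and 0.10. The members called lower were 2, 3, 1 and 0, against 2.13%, 1.38%, 0.701% and 0.0331% of all genes. For day 21 against day 3 the shift was -0.30 with own totals and -0.40 with TPM. The shift turned the split of calls over all genes at day 3 from 2899 lower and 3417 higher to 617 lower and 6682 higher with own totals, and to 322 lower and 7087 higher with TPM. Relative to the shifted median, the members' median change was -0.89, -0.90, -0.72 and -0.71 with own totals and -0.83, -0.83, -0.68 and -0.70 with TPM. Median-ratio scaling, by the median ratio of a sample's genes to their geometric means over samples, stayed near the deposited split. It called 2900 genes lower and 3414 higher at day 3. At day 21 it called 247 and 254, against 247 and 255 as deposited. The 3 scalings compared from here on are the deposited one, own totals and TPM. Fabp3 at days 3 and 7, Lpl at days 3, 7 and 14 and Cpt2 at day 7 were called lower under all 3.

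**Figure D2:**
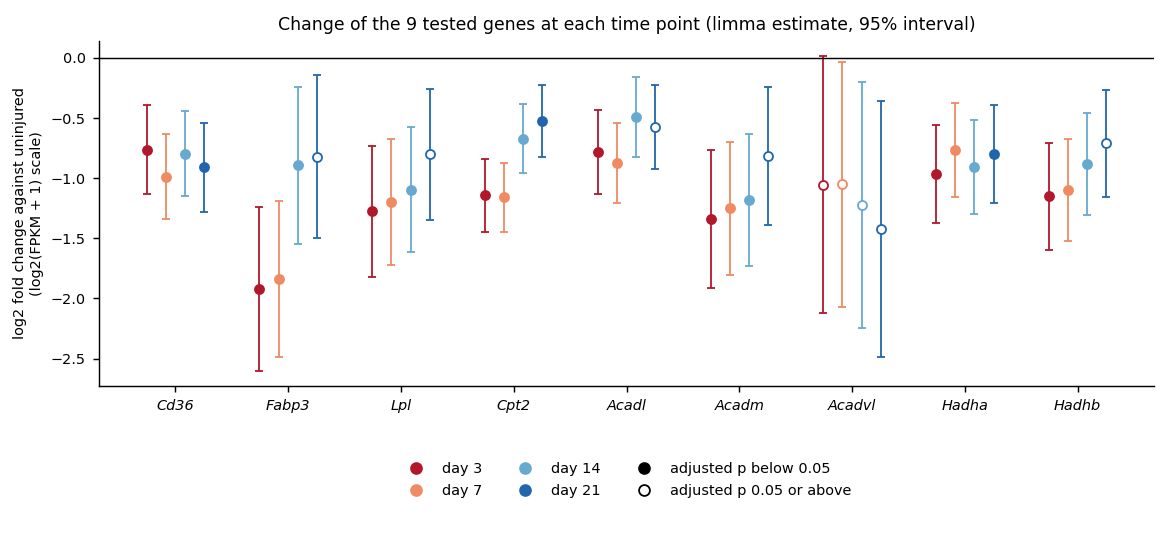
Log2 fold change against uninjured muscle (log2(FPKM + 1) scale) of the 9 tested genes at days 3, 7, 14 and 21, with bars for the 95% interval of the limma fit. Filled points have an adjusted p below 0.05 and open points do not; all 36 estimates lie below 0, Fabp3 at day 3 is the lowest at -1.92, and the widest intervals are those of Acadvl.

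Of the 3 uptake genes, Fabp3 had the lowest estimate at day 3 and was the one called higher at day 21 than at day 3. Fabp3 (ENSMUSG00000028773, chr4:130308595-130315463, plus strand) encodes the heart and muscle fatty acid binding protein, which carries fatty acids through the cytosol. Coordinates are those of the deposited table and equal GENCODE M21 on GRCm38 for all 10 members. In the 5 uninjured muscles its FPKM was 1542, 791, 967, 726 and 818. At day 3 it was 333, 306, 163, 148 and 360. All 5 muscles of day 3 were below the lowest uninjured one. At day 7 the lowest, median and highest of 6 muscles were 155, 258 and 565, and at day 14 they were 331, 500 and 802. At day 21 the values were 483, 538, 764, 532 and 385, with 4 of 5 below the lowest uninjured muscle. The mean was 27.05%, 29.9%, 53.9% and 55.8% of the uninjured mean at days 3, 7, 14 and 21. On day 3 the log2 change was -1.92 ± 0.33 (SE; limma adjusted p = 6.43e-05), and on day 7 it was -1.84 ± 0.32 (adjusted p = 0.000256). By day 14 it was -0.89 ± 0.32 (adjusted p = 0.0459), a call lost when any 1 of 9 of the 11 muscles was left out, and by day 21 it was -0.82 ± 0.33 and missed the threshold (adjusted p = 0.163). Day 21 was higher than day 3 by 1.10 ± 0.33 (adjusted p = 0.0161), which did not pass with own totals, with TPM or without day 3 replicate 3 or 4. Of the 823 exon bases, 19.6% are shared with the genes Gm10570 and Zcchc17 on the other strand, and the libraries carry no strand. Whether reads on these bases were dropped or counted is not given in the sources used here.

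Cd36 (ENSMUSG00000002944, chr5:17781690-17888801, minus strand), the fatty acid translocase of the plasma membrane, was lower at all 4 time points. Uninjured muscles had 83.9, 55.5, 53.0, 67.9 and 53.4 FPKM. Day 3 muscles had 40.2, 32.4, 36.5, 40.9 and 30.9 FPKM, and day 21 muscles had 34.1, 30.02, 39.0, 24.7 and 36.2. Between these, the lowest, median and highest were 23.02, 28.5 and 49.1 at day 7 and 27.2, 33.8 and 45.1 at day 14. In the deposited FPKM, no injured muscle at any time reached the lowest uninjured one. The mean was 57.6%, 50.3%, 56.9% and 52.3% of the uninjured mean at days 3, 7, 14 and 21. In limma, day 3 differed by -0.76 ± 0.18 (adjusted p = 0.00129) and day 21 by -0.91 ± 0.18 (adjusted p = 0.00594). The difference between day 21 and day 3 was -0.15 (95% interval -0.51 to 0.22, adjusted p = 0.587). With TPM the day 3 change was 0.046, where the median of all genes was 0.50, and with either other scaling day 21 was called below day 3. With own totals or TPM, no time point was called different from uninjured muscle.

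Lpl (ENSMUSG00000015568, chr8:68880491-68907448, plus strand) encodes lipoprotein lipase, which muscle fibres and adipocytes make and which works on the capillary wall. Its FPKM was 76.0, 71.1, 78.2, 66.3 and 50.6 in uninjured muscles. At day 3 it was 37.5, 27.6, 25.3, 24.4 and 24.1, and at day 21 it was 36.4, 33.0, 35.7, 39.4 and 49.7. All muscles of both days were below the uninjured ones, at day 21 by a margin of under 1 FPKM. At day 7 the lowest, median and highest were 17.7, 25.3 and 64.6, the last being within the uninjured range, and at day 14 they were 19.9, 34.3 and 43.5. The mean was 40.6%, 47.2%, 47.4% and 56.8% of the uninjured mean at days 3, 7, 14 and 21. In limma, day 3 differed by -1.27 ± 0.26 (adjusted p = 0.000424) and day 21 by -0.80 ± 0.26 (adjusted p = 0.09). Of 8 adipocyte markers tested, 1, 5, 1 and 0 were called higher at days 3, 7, 14 and 21. The shares of all genes called higher were 23.4%, 15%, 9.02% and 1.74%. Among those of day 7 were Adipoq, the hormone adiponectin (2.23), and Plin1, the adipocyte lipid droplet coat (1.17). The summed FPKM of all 10 adipocyte markers was 57.8 to 423 at day 7 against 68.5 to 131 in uninjured muscles. Ucp1 was at 0 in all muscles but some of day 21. Their part in the Lpl level was not tested.

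Relative to its partner, Lpl fell too. Gpihbp1 is the capillary protein that holds lipoprotein lipase, and its own FPKM was 28.2 ± 4.76 (SD, n = 5) in uninjured muscle, 19.8 ± 7.24 at day 3 and 32.1 ± 8.97 at day 21, never called changed. The log2 ratio of Lpl to Gpihbp1 within a muscle was 1.25 ± 0.35 in uninjured muscles, and 0.51 ± 0.59, 0.58 ± 0.54, 0.13 ± 0.51 and 0.29 ± 0.15 on days 3, 7, 14 and 21. In a two-sided exact permutation test, the difference from uninjured was -1.12 at day 14 (exact p = 0.00866, adjusted p = 0.026) and -0.96 at day 21 (exact p = 0.00794, adjusted p = 0.026), where no day 21 muscle reached the lowest uninjured ratio of 0.78. It was -0.74 at day 3 (adjusted p = 0.0381 by the exact permutation test), lost when any 1 of 8 of the 10 muscles was left out, and -0.67 at day 7 (adjusted p = 0.0896). Exact p-values of all ratios were adjusted over 36 tests, 9 ratios at 4 time points, of which 8 involve Cpt1b and are not read here. A ratio within a muscle does not depend on the scaling, apart from the 1 FPKM added to each gene. Of the 28 tests without Cpt1b, 12 passed.

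The balance of the fatty acid binding proteins shifted away from Fabp3. Fabp4, the form of adipocytes and capillary endothelium, had 77.9 ± 19.7 FPKM (SD, n = 5) in uninjured muscle and 67.4 ± 26.9 at day 3. It was called changed at no time point in the deposited FPKM, but higher at day 14 with own totals (0.67) and at days 3 and 14 with TPM (0.57 and 0.75). Fabp5, the form of epidermis and macrophages, rose from 4.94 ± 1.202 FPKM to 47.9 ± 26.2 at day 3, by 2.88 ± 0.48 on the log2 scale (limma adjusted p = 4.87e-05). The log2 ratio of Fabp5 to Fabp3 was -7.32 ± 0.40 in uninjured muscles, and -2.51 ± 1.39, -4.06 ± 1.87, -5.06 ± 0.76 and -5.77 ± 0.34 on days 3, 7, 14 and 21. No injured muscle overlapped the uninjured range, whose top was -6.71. The difference was 4.80 at day 3 and 1.55 at day 21, each with exact permutation p = 0.00794, the smallest that 5 against 5 can give (adjusted p = 0.026). Fabp4 to Fabp3 rose by 1.68 at day 3 (adjusted p = 0.026) and by 1.05 at day 21 (adjusted p = 0.0381) in the same exact test. Cd36 to Fabp3 rose by 1.16 at day 3 (adjusted p = 0.0381) and differed by -0.09 at day 21 (adjusted p = 0.763), also by the exact test. With 1 muscle left out, the call for Cd36 to Fabp3 at day 3 was lost for 6 of the 10 muscles and that for Fabp4 to Fabp3 at day 21 for 5 of 10. Leukocyte markers moved with Fabp5: 9, 8, 3 and 0 of the 9 tested were called higher by limma on days 3, 7, 14 and 21. Of all genes, 23.4%, 15%, 9.02% and 1.74% were. On day 21, 1 of the 9 had an unadjusted limma p below 0.05, against 19.8% of all genes. Their part in the Fabp5 level was not tested.

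**Figure D3:**
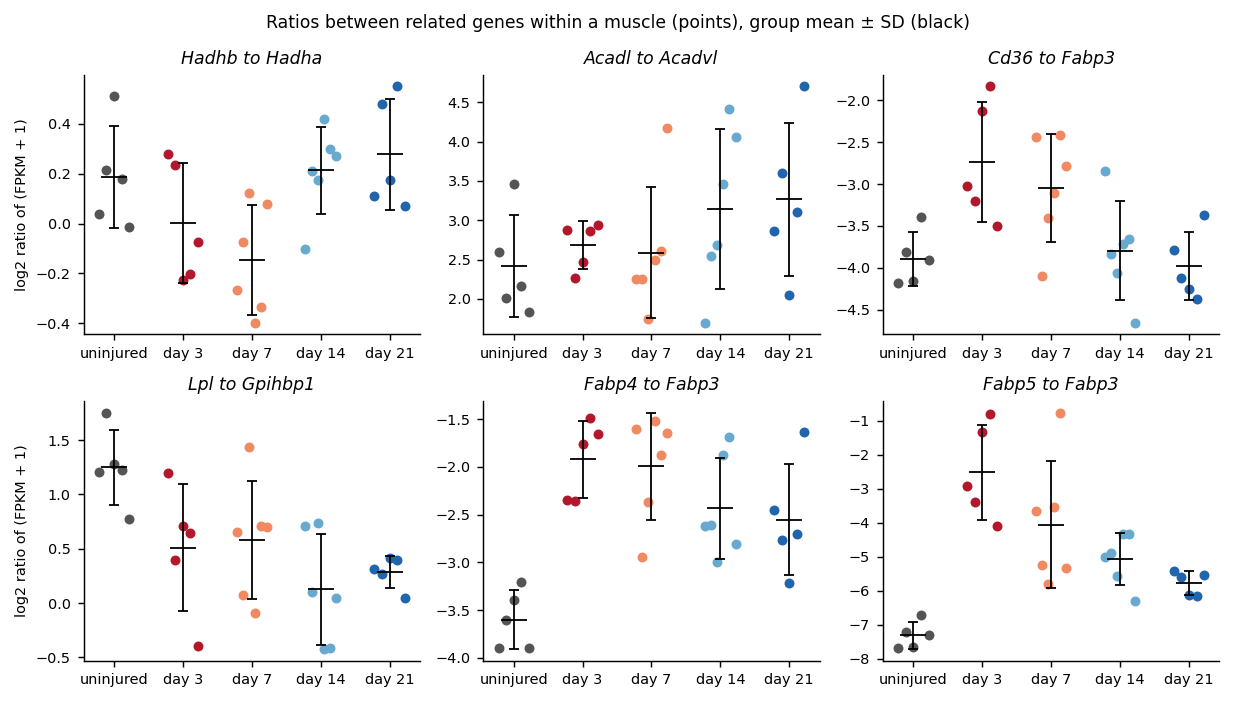
Log2 ratio of FPKM + 1 between 6 pairs of genes in each of the 27 muscles (points), with the group mean ± SD in black and an axis for each pair. Fabp5 to Fabp3 lies higher in all injured muscles than in all uninjured muscles, and so does Fabp4 to Fabp3 except for 1 muscle of day 21; at day 21 Lpl to Gpihbp1 lies between 0.05 and 0.41, below all uninjured muscles.

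Of the 2 carnitine palmitoyltransferases, Cpt2 could be measured and Cpt1b could not. CPT2 sits on the inner mitochondrial membrane and turns acylcarnitine back into acyl-CoA. Cpt2 (ENSMUSG00000028607, chr4:107903981-107923610, minus strand) had 47.6, 35.1, 50.3, 39.6 and 43.5 FPKM in uninjured muscles. At day 3 it had 20.7, 20.6, 17.2, 15.9 and 20.4, and at day 21 it had 26.2, 29.2, 31.1, 29.3 and 31.9. The lowest, median and highest were 12.7, 19.1 and 24.99 at day 7 and 23.4, 24.7 and 34.4 at day 14. In the deposited FPKM, every injured muscle was below every uninjured one, and the values of day 21 were all above those of day 3. The mean was 43.9%, 44.0%, 62.0% and 68.4% of the uninjured mean at days 3, 7, 14 and 21. In limma, day 3 differed by -1.14 ± 0.15 (adjusted p = 2.59e-06), day 14 by -0.67 ± 0.14 (adjusted p = 0.00233) and day 21 by -0.52 ± 0.15 (adjusted p = 0.0458), a call lost when any 1 of 9 of the 10 muscles was left out. Day 21 was above day 3 by 0.62 ± 0.15 (adjusted p = 0.00313), which did not hold with own totals or TPM.

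CPT1B, the muscle form of the outer membrane enzyme, sets the rate of fatty acid entry, and its gene Cpt1b (ENSMUSG00000078937, chr15:89416405-89425863, minus strand) held 0 to 45 reads per sample. Its FPKM was 0.356, 0.241, 0.101, 0.723 and 0.425 in uninjured muscles, and 0.0284, 0.0907, 0.0225, 0 and 0.376 at day 3. The highest value of all 27 muscles was 0.723. In GENCODE M21, 2744 of its 3372 exon bases (81.4%) are also exons of Gm44502 (ENSMUSG00000116461, chr15:89416405-89429696, minus strand), a readthrough gene on the same strand that joins Chkb to Cpt1b. All 4296 exon bases of Gm44502 lie in exons of Cpt1b or Chkb, and it is listed at 0 in all 27 muscles. Chkb, with 50.7% of its exon bases in Gm44502, was as low, at 0.632 ± 0.269 FPKM (SD, n = 5) in uninjured muscle. A counter that drops reads falling on 2 genes would leave only the other 628 bases of Cpt1b, but the setting used is not given in the sources used here. The values of Cpt1b are therefore not read as its level, and no change of it was tested.

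**Figure D4:**
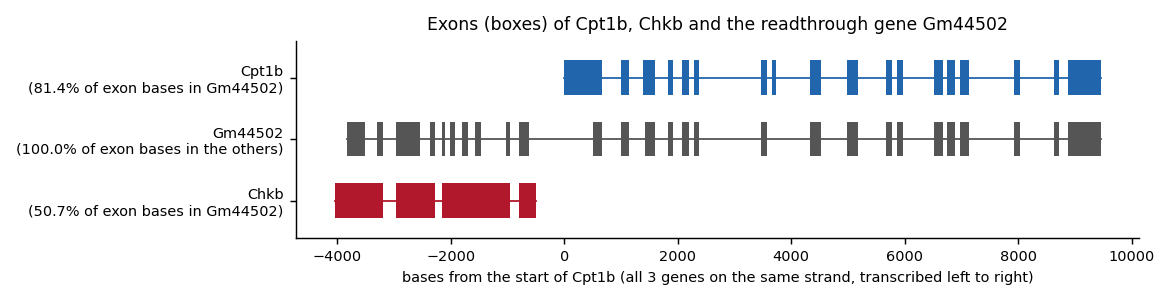
Exons (boxes) of Cpt1b, Gm44502 and Chkb along the strand they share, in bases from the start of Cpt1b, from the GENCODE M21 annotation. Gm44502 covers 81.4% of the exon bases of Cpt1b and 50.7% of those of Chkb, and has no exon base of its own.

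The 3 acyl-CoA dehydrogenases start each turn of beta-oxidation on chains of different length. In the deposited FPKM, Acadm and Acadl were called lower at days 3, 7 and 14 and Acadvl was not called. At these days Acadm was also called with own totals but not with TPM, and Acadl was called with neither. Acadm (ENSMUSG00000062908, chr3:153922357-153944632, minus strand) acts on medium chains. It had 90.6, 73.0, 66.6, 73.4 and 83.6 FPKM in uninjured muscles. At day 3 it had 43.0, 39.0, 28.1, 16.9 and 29.3, and at day 21 it had 45.0, 34.2, 66.9, 53.5 and 27.4. All muscles of day 3 were below the uninjured ones, and at day 21 the highest of 5 lay within the uninjured range. The lowest, median and highest were 19.6, 29.1 and 58.1 at day 7 and 22.7, 36.4 and 48.9 at day 14, again below every uninjured muscle. The mean was 40.4%, 44.0%, 44.7% and 58.6% of the uninjured mean at days 3, 7, 14 and 21. In limma, day 3 differed by -1.34 ± 0.28 (adjusted p = 0.000452), day 14 by -1.18 ± 0.27 (adjusted p = 0.00381) and day 21 by -0.82 ± 0.28 (adjusted p = 0.1).

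Acadl (ENSMUSG00000026003, chr1:66830839-66863277, minus strand), which acts on long chains and is well expressed in rodents, had the smallest change of the 9 at day 14. Its FPKM was 259, 155, 185, 171 and 184 in uninjured muscles. Day 3 muscles had 144, 119, 101, 92.4 and 95.3 FPKM, all below the uninjured ones. The lowest, median and highest were 76.4, 102 and 136 at day 7 and 118, 130 and 158 at day 14, where 5 of 6 were below the lowest uninjured muscle. Day 21 muscles had 126, 123, 159, 116 and 110. In limma, day 3 differed by -0.78 ± 0.17 (adjusted p = 0.000618) and day 7 by -0.88 ± 0.16 (adjusted p = 0.000504). The estimate for day 14 was -0.49 ± 0.16 (adjusted p = 0.0323), not called when any 1 of 6 of the 11 muscles was left out, and that for day 21 was -0.58 ± 0.17 (adjusted p = 0.055). With TPM the day 3 change was 0.038, again below the median of all genes.

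Acadvl (ENSMUSG00000018574, chr11:70010183-70015411, minus strand) encodes the very-long-chain dehydrogenase of the inner membrane. Its FPKM was 41.9, 37.6, 15.9, 37.2 and 51.0 in uninjured muscles and 18.6, 23.99, 17.4, 11.8 and 11.5 at day 3. At day 21 it was 16.4, 9.23, 37.5, 12.6 and 3.27. The groups overlapped at every time, with 2 of 5, 2 of 6, 3 of 6 and 3 of 5 muscles below the lowest uninjured one, replicate 3, on days 3, 7, 14 and 21. The other 4 uninjured muscles had 37.2 to 51.0 FPKM, a range that 1 injured muscle, of day 21, reached. At day 7 the lowest, median and highest were 4.003, 21.04 and 27.7, and at day 14 they were 4.76, 16.2 and 35.6. The change was -1.05 ± 0.52 at day 3 (limma adjusted p = 0.105) and -1.42 ± 0.52 at day 21 (adjusted p = 0.121), and it was called at no time point. With 1 muscle left out it was called at day 14 without uninjured replicate 3 or day 14 replicate 1 and at day 21 without day 21 replicate 3. The lowest value of days 7, 14 and 21 was in each case the muscle with the highest share of mitochondrially encoded reads of its group, 28.4%, 28.5% and 35.1%, against 17.7% to 24.9% in uninjured muscles. Without these 3 muscles, the SE at day 3 was 0.37 and the change of -1.05 passed (limma adjusted p = 0.0238), and at day 21 the change was -1.02 (adjusted p = 0.176). For the ratios of Acadl and Acadm to Acadvl, none of the exact permutation tests passed, the largest difference being 0.85 for Acadl at day 21 (exact p = 0.143, adjusted p = 0.224). Of its 2686 exon bases, 1151 (42.9%) are also exons of Dvl2 on the opposite strand, and these libraries carry no strand. Whether reads on shared bases were dropped or counted is not given in the sources used here.

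For the other members, the same 3 muscles lay at either end of their group or between. The day 21 muscle with the 35.1% share was the lowest of 5 for Fabp3, Acadl, Acadm, Acadvl, Hadha and Hadhb, and the highest for Lpl and Cpt2. The day 7 muscle was the highest of 6 for Cd36 (49.1 FPKM) and Lpl (64.6 FPKM). Without the 3 muscles the change of Cd36 at day 7 was -1.12 (adjusted p = 2.61e-05) and that of Lpl was -1.42 (adjusted p = 6.82e-05). At day 21, Lpl then passed at -0.89 (limma adjusted p = 0.033), while Cpt2 (adjusted p = 0.0616) and Hadha (adjusted p = 0.0523) did not. At day 14, Fabp3 (adjusted p = 0.0621) and Acadl (adjusted p = 0.0636) did not pass without them.

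Hadha and Hadhb encode the alpha and beta subunits of the mitochondrial trifunctional protein, which carries the hydratase, the second dehydrogenase and the thiolase for long chains. In the deposited FPKM both were called lower at days 3, 7 and 14. With own totals or TPM, Hadha was called at none of these days, and Hadhb only at day 7 with own totals. Hadha (ENSMUSG00000025745, chr5:30118304-30155162, minus strand) and Hadhb (ENSMUSG00000059447, chr5:30155248-30184593, plus strand) lie head to head. The 85 bases between their starts, the shared upstream sequence of the pair, are shown for that reason (chr5:30155163-30155247, plus strand, RefSeq sequence of GRCm38.p6, no part marked).
Hadha-Hadhb gap: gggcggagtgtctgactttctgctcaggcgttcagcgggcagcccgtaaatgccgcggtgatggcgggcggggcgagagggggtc

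Hadha had 55.5, 40.6, 32.1, 38.1 and 47.2 FPKM in uninjured muscles, and 22.6, 22.7, 23.1, 18.6 and 18.5 at day 3. At day 21 it had 28.3, 21.8, 35.97, 21.6 and 15.4, 4 of 5 below the lowest uninjured muscle. Hadhb had 57.0, 47.3, 46.3, 43.3 and 46.8 FPKM in uninjured muscles. At day 3 Hadhb had 27.7, 26.9, 19.6, 15.98 and 17.6, and at day 21 it had 30.6, 30.9, 40.8, 32.0 and 16.2. All of these Hadhb values lay below those of uninjured muscle. Hadha was 49.4%, 57.5%, 52.7% and 57.6% of the uninjured mean at days 3, 7, 14 and 21, and Hadhb was 44.8%, 46.9%, 53.8% and 62.5%. In limma, Hadha differed by -0.97 ± 0.20 on day 3 (adjusted p = 0.000374) and by -0.80 ± 0.20 on day 21 (adjusted p = 0.0248), a call lost without uninjured replicate 1 or 5 or day 21 replicate 2 or 5. Hadhb differed by -1.15 ± 0.22 on day 3 (adjusted p = 0.000159) and by -0.71 ± 0.22 on day 21 (adjusted p = 0.0642). The log2 ratio of Hadhb to Hadha was 0.19 ± 0.21 in uninjured muscles, and 0.00 ± 0.24, -0.15 ± 0.22, 0.21 ± 0.18 and 0.28 ± 0.22 on days 3, 7, 14 and 21. None of the 4 differences passed, the largest being -0.33 at day 7 (exact permutation p = 0.0368, adjusted p = 0.0697). Over the 27 muscles, which share the group differences, the 2 genes had a Pearson correlation of 0.87 on the log2 scale, and that of Acadm and Hadhb was 0.94, the highest of the 36 pairs. The lowest was 0.06, for Lpl and Acadvl.

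Between successive time points no member was called. The number with an unadjusted p below 0.05 in limma was 0 for day 7 against day 3, 3 for day 14 against day 7 and 0 for day 21 against day 14, against 15.7%, 12.4% and 6.21% of all genes. The genes called after adjustment were 0.0478% lower for day 7 against day 3, 0.219% lower and 0.116% higher for day 14 against day 7, and none for day 21 against day 14. From day 3 to day 21, Fabp3 and Cpt2 were called higher, against 9.23% of all genes called higher and 16.2% called lower, and the other 7 were not, their estimates lying between -0.37 for Acadvl and 0.52 for Acadm. These comparisons share samples with those against uninjured muscle.

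Of the other genes of the pathway, more were called lower than higher in the deposited FPKM. Of 73 listed genes, 71 were tested. On days 3, 7, 14 and 21, 41, 30, 23 and 3 of them were called lower and 9, 6, 6 and 0 were called higher. The shares of all genes called lower were 19.8%, 14.4%, 11.3% and 1.69%, and those called higher were 23.4%, 15%, 9.02% and 1.74%. The other scalings turned the split for these genes as for all genes. With own totals, 14 of the 71 were called lower and 17 higher at day 3, against 4.14% and 44.9% of all genes. With TPM the day 3 counts were 7 lower and 18 higher, against 2.13% and 46.9%. Of 18 other mitochondrial beta-oxidation genes, 14, 11, 8 and 0 were called lower at days 3, 7, 14 and 21 and 0 higher, with medians of -0.92, -0.75, -0.68 and -0.52, and 12 had an unadjusted limma p below 0.05 at day 21, against 19.8% of all genes. At day 3, 6 of the 18 were called lower with own totals and 3 with TPM. Eci1, an enoyl-CoA isomerase for unsaturated chains, fell by 1.59 on the log2 scale at day 3, and Acot13, a thioesterase, fell by 1.49. Etfdh, which passes the electrons of the acyl-CoA dehydrogenases to ubiquinone, fell by 1.17 at day 3 and was at -0.88 at day 21 (limma adjusted p = 0.0564). Of 9 peroxisomal genes, 6 were called lower at day 3 and 1 at day 21, but with own totals or TPM none was called lower at day 3 and 3 were called higher, against 44.9% and 46.9% of all genes. The day 3 median of the list minus that of all genes was -0.56 as deposited, -0.31 with own totals and -0.25 with TPM. The gene called at day 21 was Hsd17b4, the peroxisomal bifunctional enzyme, at -0.43 (adjusted p = 0.0395).

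In the steps before the mitochondrion, the called genes went both ways at day 3 in the deposited FPKM. Of all genes, 19.8% were called lower and 23.4% higher at day 3. The shares were 4.14% and 44.9% with own totals, and 2.13% and 46.9% with TPM. Among 10 uptake genes and partners of lipoprotein lipase, 3 were called lower and 4 higher at day 3. With own totals it was 1 and 5, and with TPM 1 and 6. Vldlr, the receptor for very low density lipoproteins, fell by 1.67 and Slc27a1, the muscle fatty acid transport protein, fell by 1.16. Fabp5 rose by 2.88 and Angptl4, a secreted inhibitor of lipoprotein lipase, rose by 1.93, from 0.837 ± 0.407 FPKM (SD, n = 5) to 6.78 ± 3.78. Among 7 acyl-CoA synthetases, 2 were called lower and 1 higher at day 3, and 0 and 2 with own totals or TPM. Acsl1, the main form of muscle, fell by 1.19, and Acsl5 rose by 1.16. Among 6 carnitine shuttle genes, 4 were called lower and 2 higher at day 3. With own totals it was 1 and 2, and with TPM 0 and 2. Crat, carnitine acetyltransferase, fell by 1.30 and Slc25a20, the carnitine-acylcarnitine carrier, fell by 0.76. Cpt1a, the liver form of the outer membrane enzyme, rose by 1.02 (limma adjusted p = 0.00205), from 1.70 ± 0.154 FPKM to 4.70 ± 1.70, and was at 0.05 at day 21 (adjusted p = 0.937).

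Of 10 lipid droplet and lipolysis genes, 5 were called lower and 1 higher at day 3, and the split was 3 and 2 with own totals and 2 and 2 with TPM. Of all genes at day 3, 19.8% were called lower and 23.4% higher as deposited. The shares were 4.14% and 44.9% with own totals, and 2.13% and 46.9% with TPM. Plin5, the droplet coat protein of oxidative tissue, was called lower at all 4 time points, with changes of -1.83, -1.73, -1.57 and -1.25 at days 3, 7, 14 and 21. Its level was 11.1 ± 4.57 FPKM in uninjured muscle and 4.07 ± 1.55 at day 21 (SD, n = 5 each). Plin3 fell by 0.89 at day 14 and again at day 21 (limma adjusted p = 0.00448), and Plin2 rose by 1.26 at day 3. Of 11 nuclear receptors and coactivators tested, 7 were called lower and 1 higher on day 3, 6 and 2 on day 14, and 0 on day 21. Of all genes, 11.3% were called lower and 9.02% higher on day 14, and 1.69% and 1.74% on day 21. On day 21, 8 of these 11 had an unadjusted limma p below 0.05, against 19.8% of all genes. On day 3 the split was 3 lower and 3 higher with own totals and 1 and 3 with TPM. On day 14 it was 4 and 2 with own totals and 1 and 2 with TPM. The day 14 shares of all genes were 1.91% and 15.2% with own totals, and 0.701% and 10.9% with TPM. The day 3 list median minus that of all genes was -0.60 as deposited, -0.53 with own totals and -0.52 with TPM. Ppargc1a, the coactivator PGC-1alpha, fell by 1.22 at day 3, Esrra, the estrogen-related receptor alpha, fell by 1.13, and Rxrg, a retinoid X receptor that pairs with PPAR receptors, fell by 1.47. Pparg, the adipocyte receptor, rose by 0.53 at day 3. Of the genes named from these lists, Eci1, Acot13, Vldlr, Plin5 and Ppargc1a were called lower and Fabp5, Angptl4, Acsl5, Cpt1a, Plin2 and Pparg higher at day 3 under all 3 scalings. With TPM the day 3 change of Slc25a20 was 0.0017, below the median of all genes. With either other scaling Hsd17b4 and Plin3 were not called at day 21, nor was Plin5.

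**Figure D5:**
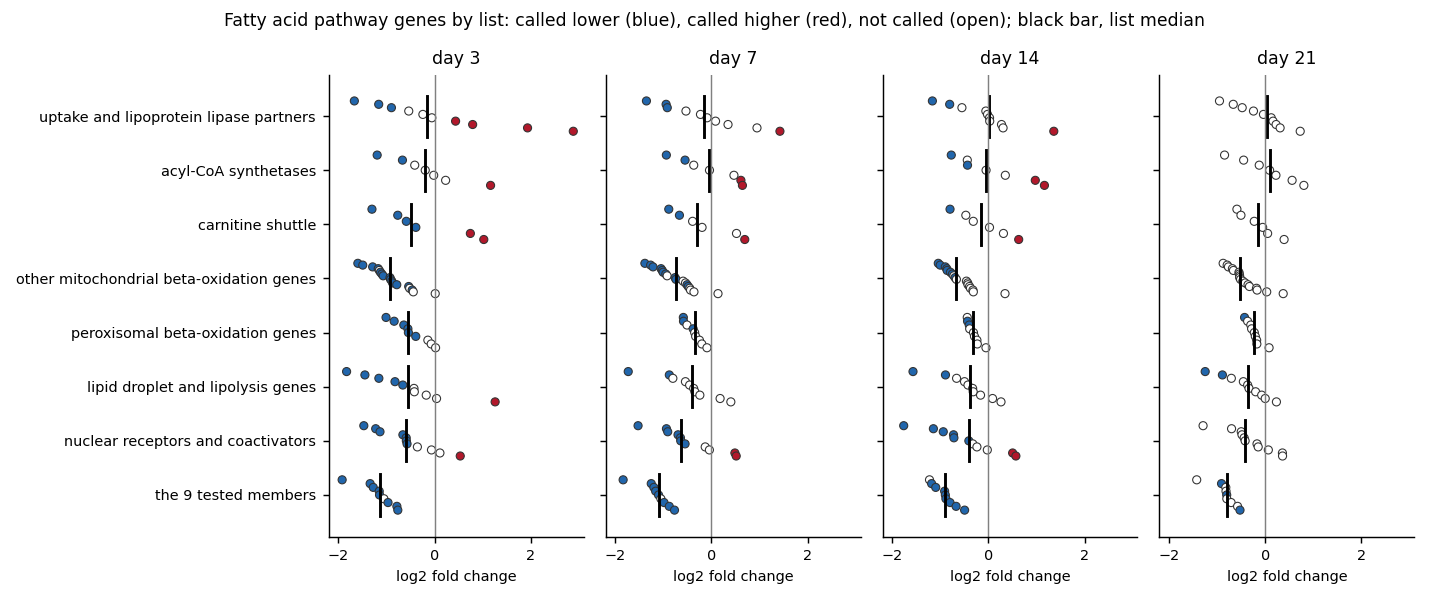
Log2 fold change against uninjured muscle of the tested genes of 7 lists of the fatty acid pathway and of the 9 tested members, in 1 panel per time point. Blue points were called lower, red points called higher and open points not called (adjusted p from limma); black bars are list medians, and at day 21 the 3 called genes of the lists are Hsd17b4, Plin3 and Plin5.

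The promoters were read because 8 of the 9 tested members were called lower at days 3, 7 and 14 and nuclear receptors bind the letters AGGTCA. RefSeq windows from 250 bases before to 50 after the start were given for 8 of the 10 members, all but Lpl and Cpt1b. AGGTCA was found on either strand in 3 of 8 windows, and in 16.3% of all 32851 windows. The longer TCAAGGTCA was in 0 of 8 (0.423% of all) and the direct repeat AGGTCANAGGTCA in 0 of 8 (0.0396% of all). Both longer motifs hold AGGTCA, and both strands were searched. The parts of the 3 windows that hold the match and lie outside exons are shown with AGGTCA or its reverse, TGACCT, in capitals. They are from chr5:17836069-17836146 for Cd36, in an intron of longer Cd36 transcripts, chr3:153944837-153944893 for Acadm and chr11:70015460-70015565 for Acadvl, all on the minus strand of GRCm38.p6.
Cd36 upstream: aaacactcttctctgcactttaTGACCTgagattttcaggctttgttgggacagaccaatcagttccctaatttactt
Acadm upstream: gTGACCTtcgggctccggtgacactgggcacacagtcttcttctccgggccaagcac
Acadvl upstream: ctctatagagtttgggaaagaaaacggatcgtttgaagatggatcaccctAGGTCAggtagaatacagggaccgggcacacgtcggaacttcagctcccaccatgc

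The matches begin at -228, -249 and -87 counted from the RefSeq start of Cd36, Acadm and Acadvl. The 3 genes with a match had day 3 changes of -0.76, -1.34 and -1.05, within the range of the 9. A match is a run of letters and not a measured site.

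By Pearson correlation of log2(FPKM + 1) over the 27 muscles with the mean standardized profile of a role, the uptake genes were closest to Tmem65 (0.91), Pde4a (0.91), Acaa2 (0.91), Ephx2 (0.90) and Ckmt2 (0.89). Cpt2 was closest to Mlycd (0.95), Slc25a3 (0.93), Mfn1 (0.92), Ogdh (0.92) and Letm1 (0.92). The beta-oxidation genes were closest to Etfdh (0.96), Dld (0.95), Fam210a (0.95), Akap1 (0.95) and Dlst (0.94). These correlations span groups that differ and are given as a description.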

How the data were processed

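The members and all gene lists were chosen with earlier results of these data known. Per the labels and the published methods, the authors made non-directional poly-A libraries from tibialis anterior muscles, aligned reads with HISAT2 2.0.5, counted them with featureCounts 1.5.0-p3 and deposited FPKM in 1 table that also gives the exon length of each gene; the genome build is not given in the sources used here. Positions equal GENCODE M21 for 98.3% of the 54409 genes found in it. FPKM times length gave whole reads (tolerance 0.02) for 100% of values above 0. Groups came from the sample titles.

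FPKM were tested here on log2(FPKM + 1) by limma 3.58.1 (R 4.3.3, variance trend on), 27 samples and genes of at least 0.5 FPKM in at least 5 samples. p-values are two-sided with Benjamini-Hochberg adjustment within a comparison, and intervals are at 95%. Ratios were tested with an exact permutation test in Python 3.11.15. For each list, the genes named were those with the largest rises and falls at day 3 and day 21, and others of the list by their role. On simulated data, limma recovered 82% of log2 changes of 1 at day 3 and 71% at day 21 among 14630 genes. The simulation changed equally many genes at each time point and gave each gene 1 spread, so these figures do not compare the days. Alternatives covered the pseudocount, filter, scaling, quantile normalization, replicate block, groups in the fit and single muscles left out. The setting without the 3 muscles of highest mitochondrial share was chosen after seeing the data. The depth limits low genes, and intervals cover the spread between samples only.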

Additional observations from a re-analysis of the deposited data

Results flagged for a closer look

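Of 50 groups of muscles, 10 genes in 5 groups, 3 held a value set apart from the rest by Dixon's test, and chance alone marks about 1 in 20. Cd36 in day 7 replicate 6 was 49.1 FPKM, the next muscle being at 32.0. Lpl in day 3 replicate 1 was 37.5 FPKM, the next being at 27.6. Cpt1b in day 3 replicate 5 was 0.376 FPKM against 0.0907 for the next, in a gene with few reads.

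The change from uninjured muscle differed between 2 time points for 2 genes by the limma test of day 21 against day 3. Fabp3 was higher at day 21 by 1.10 (adjusted p = 0.0161) and Cpt2 by 0.62 (adjusted p = 0.00313) on the log2 scale. Both hold for the deposited FPKM, and neither passed with own totals or TPM. With those scalings the member called was Cd36, which was lower at day 21 than at day 3.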

How the results depend on the processing

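At days 3 and 7 the count of members called moved by over 1.5 times with the scaling of the samples alone, and at day 21 with several settings. With FPKM rescaled to a common sum (TPM), 2, 3, 1 and 0 of the 9 members were called at days 3, 7, 14 and 21, and 1 at day 21 against day 3. With each sample's own total of reads the counts were 4, 5, 2 and 0, and 1. Of the 71 other pathway genes tested, 25, 20, 11 and 0 were called in either direction with TPM. The counts were 31, 22, 18 and 0 with own totals and 50, 36, 29 and 3 as deposited. Lower calls were 7, 6, 2 and 0 with TPM and 14, 10, 8 and 0 with own totals. As deposited they were 41, 30, 23 and 3. Of all genes, TPM called 2.13%, 1.38%, 0.701% and 0.0331% lower and 46.9%, 42.7%, 10.9% and 0.265% higher. Own totals called 4.14%, 2.85%, 1.91% and 0.168% lower and 44.9%, 36.6%, 15.2% and 0.699% higher. Quantile normalization gave 5 members at day 14 and 0 at day 21. The day 21 count of 3 was 1 with no filter on low values and 8 with only the 2 groups in the fit. Leaving out 1 muscle at a time, it was 1 to 5. It fell to 1 without uninjured replicate 1 or 5 or day 21 replicate 2 or 5, and was 5 without day 21 replicate 3. The count for day 21 against day 3 was 1 to 3, and 1 without day 3 replicate 3 or 4.

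Whether muscles of the same replicate number share an animal or a batch was not settled. Over 51 pairs with the same number the median correlation of deviations was -0.003, against 0.003 over the 240 other pairs. Of the 51, which ranged from -0.52 to 0.57, 15 were over 0.1. By this measure, 11 of 27 muscles correlated best with one of their own number. The counts that unpaired muscles would give were not worked out. With the replicate number as a block, 7 members were called at day 21, where 2.77% of all genes were called lower. With the letter of the sample description as a block it was also 7, against 4.61% of all genes, and 1 call was left for day 21 against day 3. Without a block, 1.69% of all genes were called lower at day 21. The replicate block moved no other count of members by over 1.5 times.

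Of 1098 values of member changes under the alternatives, 970 kept direction and side of the threshold, 86 lost the call, 30 gained it and 12 turned sign. With TPM, the day 3 change was 0.046 for Cd36 and 0.038 for Acadl, and day 21 against day 3 was -0.14 for Lpl, -0.42 for Acadl, -0.088 for Acadm, -0.44 for Hadha and -0.16 for Hadhb. With own totals it was -0.26 for Acadl, -0.28 for Hadha and -0.011 for Hadhb. For Acadvl it was 0.034 without the 3 muscles of highest mitochondrial share, and -0.76 to 0.034 leaving out 1 muscle. Of 378 values of ratios, 13 turned sign, all where 1 muscle was left out and all of differences that had not passed. The range was -0.023 to 0.11 for Hadhb to Hadha at day 14, -0.14 to 0.44 for Acadl to Acadvl at day 7, -0.56 to 0.014 and -0.13 to 0.27 for Acadm to Acadvl at days 7 and 14, and -0.092 to 0.27 and -0.24 to 0.035 for Cd36 to Fabp3 at days 14 and 21. Why the settings differ was not tested. Cpt1b, with at most 45 reads, was not tested.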
